A study of Mus musculus with 24 samples.

Results

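The 10 genes of mitochondrial fatty acid and lipoate synthesis, listed by symbol, were followed through sorted small-intestinal crypt cells of Setd1a knockout mice. They were Cbr4, Hsd17b8, Mcat, Oxsm, Mecr, Ndufab1, Lias, Lipt1, Lipt2 and Coasy, and all 10 had a row among the 55421 genes of the count table. The list was built around Cbr4, which was selected on its count levels in knockout against control stem cells. The comparison of knockout and control stem cells is therefore described here with values and no test for any of the 10 genes. Setd1a encodes a histone H3 lysine 4 methyltransferase of the COMPASS family.

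The knockout animals (hom) were Setd1a FC/FC and carried Lgr5-eGFP-CreERT2, and the controls (het) were Setd1a FC/+ with the same Lgr5-eGFP-CreERT2 allele, so both groups had Cre, at least 1 FC allele and tamoxifen. Each mouse received 1 mg of tamoxifen into the peritoneum on 3 days in a row, and crypts were taken 4 days after induction. Dissociated crypts were stained for CD24, EpCAM and CD45 and sorted into stem cells, transit-amplifying (TA) cells and a Paneth fraction. With 4 animals of each genotype, this gave 24 full-length poly(A)-primed cDNA libraries in 6 groups of 4. Cre was driven from Lgr5, a gene of crypt base stem cells, and the share of recombined cells in each library is not known. Sex and age were not given in the sources used here.

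Mitochondria build fatty acids with a set of separate enzymes, unlike the single large synthase of the cytosol. The growing chain hangs on acyl carrier protein, and its octanoyl form is turned into lipoate, the cofactor that swings substrates between the active sites of pyruvate dehydrogenase and related complexes. Acyl carrier protein with a longer chain also binds small LYR-motif proteins that assemble respiratory complexes and iron-sulfur clusters. The crypt is a tissue in which stem, TA and Paneth cells are known to differ in mitochondrial and glycolytic metabolism.

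Each library held between 24726282 and 47052856 counts assigned to genes. Levels are given as CPM, a gene's counts relative to the library's total, divided by TMM factors over the 24 libraries. The factors ran between 0.448 and 1.22 and were lowest in Paneth libraries. At those low factors CPM lie above a gene's plain share of the library's counts. The summed level of 10 stem cell markers was 32400 to 46800 CPM in hom stem libraries and 28100 to 34700 CPM in het stem libraries, against 3770 to 10400 CPM in all other libraries. For Paneth cells, 10 markers summed to 71500 CPM or more in every Paneth library and to 5180 CPM or less elsewhere. The Paneth fraction also carried other secretory cells' transcripts. There 10 enteroendocrine markers summed to 3600 to 8050 CPM and 10 tuft markers to 2420 to 4740 CPM. In stem and TA libraries these sums were at most 262 and 14.1 CPM. The TA fraction carried goblet cell transcripts. In it 8 goblet markers summed to 5420 to 12600 CPM in hom and 6380 to 15900 CPM in het libraries. They summed to 3830 to 17500 CPM in hom Paneth, 1200 to 11600 CPM in het Paneth and at most 1100 CPM in stem libraries. Setd1a itself had 3.73 to 6.92 CPM in hom stem libraries and 3.99 to 7.08 CPM in het stem libraries. It had 4.52 to 6.62 CPM in hom TA libraries against 3.43 to 6.74 CPM in het TA libraries, and 4.86 to 7.32 CPM in hom Paneth libraries against 6.36 to 15.1 CPM in het Paneth libraries. The counts are summed over all exons, so they do not check a deletion of part of the gene.

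The start regions of Cbr4, Lipt2 and Mecr are shown because Cbr4 and Lipt2 are members whose hom and het stem libraries did not overlap and Mecr had the smallest adjusted p between fractions. Each is the RefSeq window of 250 bases before to 50 after the annotated start (GRCm38.p6, 5′ to 3′ on the gene's strand, here + for all of them), with CG dinucleotides in capitals. The Cbr4 window is chr8:61487484-61487783, the Lipt2 window is chr7:100159027-100159326 and the Mecr window is chr4:131843221-131843520.
Cbr4: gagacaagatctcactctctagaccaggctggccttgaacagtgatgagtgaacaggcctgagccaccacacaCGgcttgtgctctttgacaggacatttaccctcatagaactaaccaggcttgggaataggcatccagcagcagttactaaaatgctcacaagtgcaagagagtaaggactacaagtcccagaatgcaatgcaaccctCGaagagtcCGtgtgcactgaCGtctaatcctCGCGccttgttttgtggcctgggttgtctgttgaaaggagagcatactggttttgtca
Lipt2: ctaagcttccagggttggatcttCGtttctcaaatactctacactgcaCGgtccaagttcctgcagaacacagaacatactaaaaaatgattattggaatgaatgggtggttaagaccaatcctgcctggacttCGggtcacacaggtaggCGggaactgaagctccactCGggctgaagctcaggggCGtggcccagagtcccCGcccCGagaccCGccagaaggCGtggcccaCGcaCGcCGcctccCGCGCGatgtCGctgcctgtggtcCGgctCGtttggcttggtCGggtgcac
Mecr: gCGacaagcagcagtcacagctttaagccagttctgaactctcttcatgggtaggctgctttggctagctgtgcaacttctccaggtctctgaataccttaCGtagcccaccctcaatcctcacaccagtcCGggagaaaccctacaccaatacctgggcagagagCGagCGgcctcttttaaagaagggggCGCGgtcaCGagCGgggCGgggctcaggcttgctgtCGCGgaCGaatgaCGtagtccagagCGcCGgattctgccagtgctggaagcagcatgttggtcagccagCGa

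The Cbr4 window held 6 CG dinucleotides, the Lipt2 window 20 and the Mecr window 17, and over all 32851 mouse windows the median was 7 with quartiles at 3 and 20. The Cbr4 window also held actacaa, beginning 70 bases before the start, a stretch that opens the known binding motif of the zinc finger protein Zfp143. On either strand ACTACAA occurs in 3.24% of all windows. TGACGT, part of the cyclic AMP response element, was in the Cbr4 and Mecr windows and in 7.51% of all windows. The Lipt2 and Mecr windows held GGGCGG, which 35.7% of all windows hold, and CCAAT, which 37.4% hold, and the Cbr4 window held neither on either strand. ACTACAA was searched for after the Cbr4 window had been read. An entry was found for 8 of the 10 genes, Hsd17b8 under its older symbol H2-Ke6. Mcat and Coasy had none, and Coasy was the other member whose hom and het stem libraries did not overlap.

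Cbr4 was lower in all 4 hom than in all 4 het stem libraries. Cbr4 encodes a short-chain dehydrogenase that, in human mitochondria, forms the ketoacyl reductase of fatty acid synthesis together with Hsd17b8. It lies at chr8:61487734-61506694 (mm10, + strand), with 6259 exonic bases. The 4 hom stem libraries had 4.86, 8.22, 7.10 and 5.07 CPM, and the 4 het stem libraries had 31.8, 31.0, 32.8 and 25.7 CPM. The groups lay far apart compared with the spread inside either one, and Cbr4 was selected on these same values. The means were 6.32 ± 1.62 CPM in hom and 30.3 ± 3.18 CPM in het stem cells (SD, n = 4 each), a log2 fold change of -2.27 with a standard error of 0.23. Raw counts were 166 to 374 in hom and 787 to 1820 in het stem libraries.

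In TA cells of the same animals Cbr4 was also lower in all hom libraries. The gene was chosen with earlier results of these libraries known, so its TA values are not independent support of the stem values. The hom TA libraries had 11.0, 8.18, 18.5 and 11.9 CPM, against 31.0, 32.3, 26.8 and 21.9 CPM in het TA libraries. The highest hom library stayed under the lowest het library. The means were 12.4 ± 4.37 CPM in hom and 28.0 ± 4.68 CPM in het TA cells (SD, n = 4 each), and the log2 fold change was -1.17 with a standard error of 0.25. The difference did not pass edgeR's quasi-likelihood test after Benjamini-Hochberg adjustment over all genes (adjusted p = 0.47, unadjusted p = 0.000997), and with DESeq2 it did (adjusted p = 0.00483). With edgeR the adjusted p lay between 0.15 and 0.798 over the other settings and left-out libraries.

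In the Paneth fraction Cbr4 varied more between animals than between genotypes. Hom Paneth libraries had 23.1, 30.3, 22.4 and 9.40 CPM, against 12.7, 29.4, 29.8 and 15.2 CPM in het Paneth libraries. Both groups ran over about the same range. Paneth markers summed to 173000 to 913000 CPM in hom and 71500 to 490000 CPM in het Paneth libraries, and their part in this value was not tested. The log2 fold change was -0.02 with a 95% interval of -0.89 to 0.85 (edgeR, adjusted p = 1.00), so the values were compatible with a change of either sign within these bounds.

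Over the 6 groups the order of mean Cbr4 levels was, low to high, hom stem 6.32, hom TA 12.4, hom Paneth 21.3, het Paneth 21.7, het TA 28.0 and het stem 30.3 CPM. Each neighbouring pair in that order overlapped in its libraries' ranges, hom TA and hom stem by the single pair of 8.18 and 8.22 CPM. The genotype effect in stem cells minus that in TA cells was -1.09 (log2, standard error 0.45), and that in stem cells minus that in the Paneth fraction was -2.23 (standard error 0.46). The TA effect minus the Paneth effect was -1.14 (standard error 0.45). These differences were not tested. In a bulk sample, fewer recombined or expressing cells and less RNA per cell cannot be told apart.

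**Figure D1:**
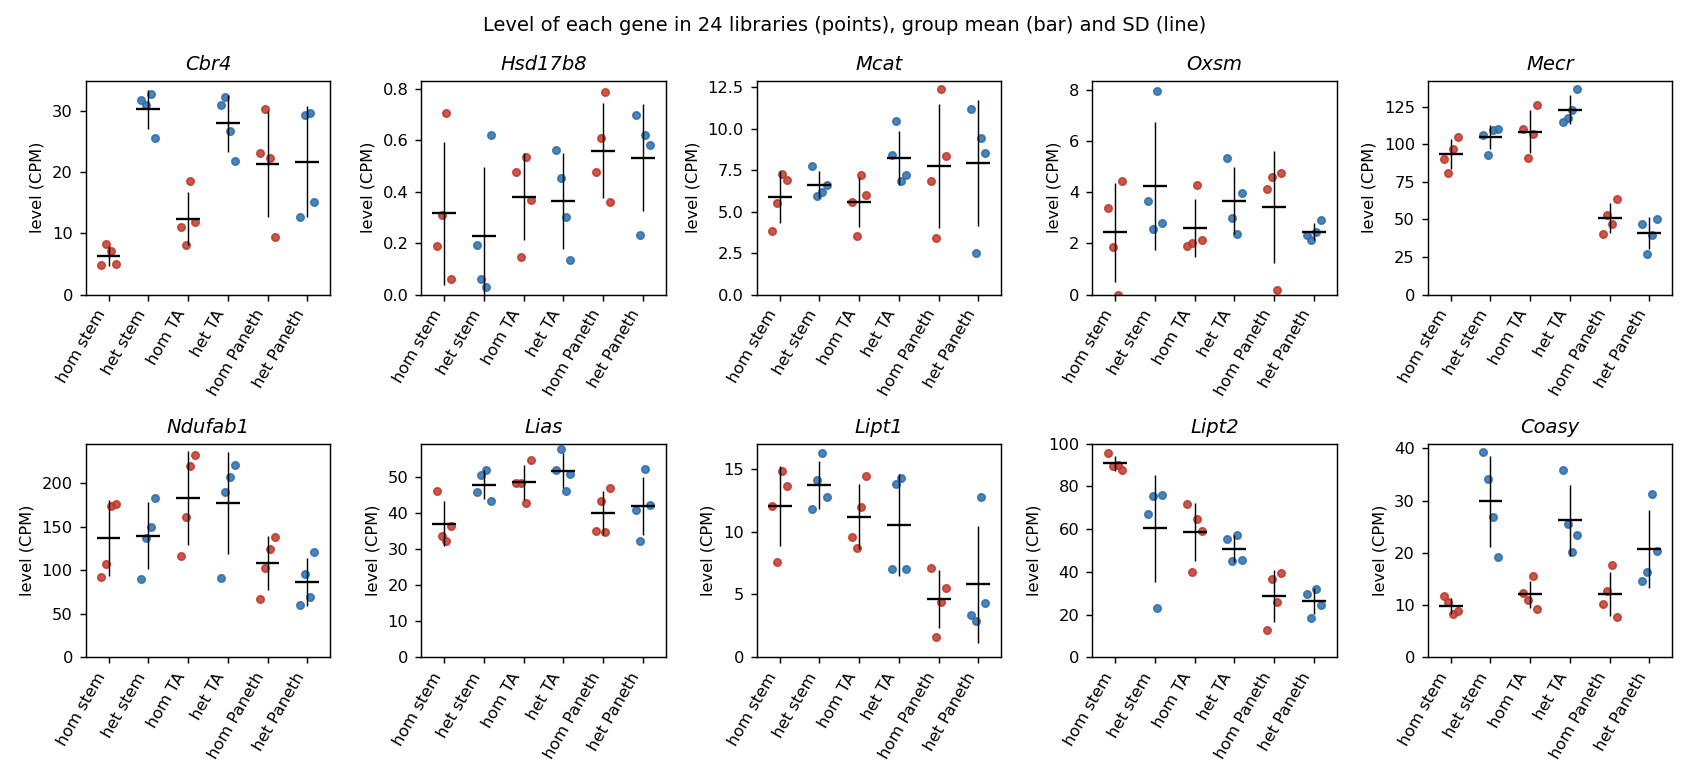
Level of each of the 10 genes in CPM (vertical axis, linear from 0, own scale per gene) in the 6 groups, with hom in red and het in blue, 1 point per library, the group mean as a bar and the SD as a line. Cbr4 and Coasy are lower in hom than in het in the stem and TA groups, with no overlap of libraries, and the Mecr levels of all Paneth libraries, up to 63.3 CPM, are below those of all stem and TA libraries, from 81.2 CPM.

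Coasy was the other member with no overlap in both stem and TA cells. It encodes the bifunctional enzyme of the last steps of coenzyme A synthesis, and coenzyme A donates the phosphopantetheine arm on which acyl carrier protein carries its chain. Coasy lies at chr11:101082565-101086619 (mm10, + strand). Hom stem libraries had 11.7, 10.5, 8.36 and 8.83 CPM, against 39.3, 34.1, 26.8 and 19.2 CPM in het stem libraries. The het libraries were spread widely and still all lay above the hom libraries. Its stem log2 fold change was -1.61 with a standard error of 0.25.

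In TA cells Coasy had 12.4, 10.9, 15.5 and 9.32 CPM in hom libraries, against 35.9, 25.5, 20.1 and 23.5 CPM in het libraries. Again every hom library was below every het library. The log2 fold change was -1.12 with a standard error of 0.23, which did not pass with edgeR (adjusted p = 0.449, unadjusted p = 0.000653) and passed with DESeq2 (adjusted p = 0.00235). With edgeR the adjusted p lay between 0.305 and 0.798 over the other settings and left-out libraries. In the Paneth fraction Coasy averaged 12.1 ± 4.22 CPM in hom and 20.7 ± 7.47 CPM in het libraries (SD, n = 4 each), a log2 fold change of -0.77 with a standard error of 0.34 (edgeR, unadjusted p = 0.0431, adjusted p = 1.00). There 3 of the 4 hom libraries were below all het libraries. The stem effect minus the Paneth effect was -0.83 for Coasy (standard error 0.40, not tested).

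Across the 24 libraries, after each fraction's mean was removed, Coasy followed Cbr4 with Pearson's r = 0.828 on log2 CPM, the fourth highest of 9266 genes with a mean of at least 5 CPM. The libraries come from 8 animals and include the stem libraries on which Cbr4 was chosen, so this is a description. Of the other members, Lias had r = 0.355 (rank 805), and Mcat, Lipt1, Mecr and Ndufab1 lay between -0.0605 and 0.125. Lipt2 had r = -0.442, at rank 9059. The other genes among the 5 most like Cbr4 were Sdhc (r = 0.869), a subunit of succinate dehydrogenase, Senp8 (r = 0.846), a NEDD8 protease, Fastk (r = 0.833), a founding member of a family of mitochondrial RNA-binding proteins, and Gatb (r = 0.827), a subunit of the mitochondrial glutamyl-tRNA amidotransferase.

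Sdhc had 118 to 138 CPM in hom and 201 to 248 CPM in het stem libraries. Senp8 had 3.80 to 8.18 CPM in hom and 14.7 to 20.8 CPM in het stem libraries. Gatb had 4.01 to 13.9 CPM in hom and 18.9 to 36.5 CPM in het stem libraries. In TA cells, Sdhc, Fastk and Gatb had every hom library below every het library, and Senp8 did not (5.82 to 23.3 CPM in hom, 10.6 to 14.6 CPM in het TA libraries). Over all genes tested, 2.93% in stem and 2.19% in TA cells had no overlap with hom lower. Only fraction means were removed before the correlation with Cbr4, so genotype differences like its own were part of how these genes were picked. The nearest tested genes beside Cbr4 on chromosome 8 had stem log2 fold changes nearer 0, at -0.17 for Nek1, -0.07 for Sh3rf1, -0.19 for Palld and 0.38 for Ddx60, with standard errors of 0.19, 0.33, 0.39 and 0.75.

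**Figure D2:**
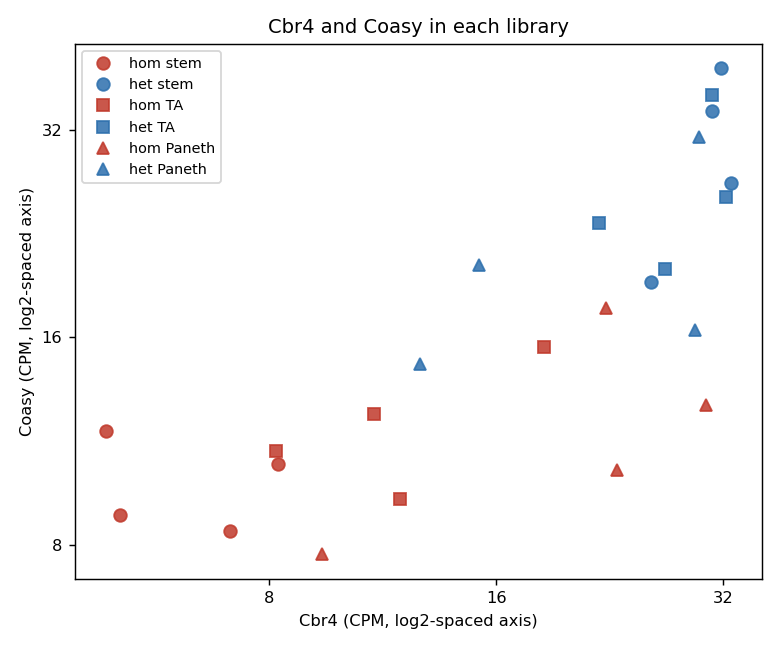
Cbr4 (horizontal) against Coasy (vertical) in each of the 24 libraries, both in CPM on log2-spaced axes, with hom in red, het in blue and the fraction given by the shape. The hom stem and hom TA libraries lie at the lower left, up to 18.5 CPM of Cbr4 and 15.5 CPM of Coasy, and all het stem and het TA libraries lie above both values.

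Among the other enzymes of chain building, stem log2 fold changes lay between -0.82 for Oxsm and -0.04 for Ndufab1, and Hsd17b8 was near the limit of detection. Hsd17b8 (chr17:34026033-34028060, - strand), the partner of Cbr4 in the human reductase, had 1 to 26 counts per library and at most 0.79 CPM in any library. It did not pass the filter on low counts in stem cells. Its log2 fold change was 0.08 in TA cells (95% interval -1.38 to 1.54) and 0.06 in the Paneth fraction (95% interval -1.39 to 1.51). Of its 1643 exonic bases, 1419 are also annotated to Gm20427 on the same strand, so reads there may not have been assigned to either gene and its true level is uncertain.

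Mcat (chr15:83546797-83563787, - strand), which loads malonyl groups onto acyl carrier protein, averaged 5.88 ± 1.56 CPM in hom and 6.62 ± 0.82 CPM in het stem cells (SD, n = 4 each). In TA cells it had 5.60, 3.53, 7.22 and 5.98 CPM in hom libraries, against 8.40, 10.5, 6.88 and 7.22 CPM in het libraries. Of the hom values, 3 of 4 lay below the het range and 1 was inside it. The TA log2 fold change was -0.55 with a standard error of 0.26 (edgeR, adjusted p = 0.864). Oxsm (chr14:16238652-16249808, - strand), the condensing enzyme, was the most uneven member. It had 3.39, 1.87, 0 and 4.43 CPM in hom stem libraries, against 3.66, 2.56, 7.94 and 2.81 CPM in het stem libraries. The hom library with no count could have held up to 0.0922 CPM at the limit of 3 counts, while TA cells of that same animal had 4.29 CPM. The log2 fold change in stem cells was -0.82 with a standard error of 0.96, and it ran from -1.27 without hom replicate 4 to -0.324 without het replicate 3.

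Mecr (chr4:131843470-131867786, + strand), the enoyl reductase of the final step of each cycle, was among the highest members per kilobase of exon. It averaged 93.3 ± 10.1 CPM in hom and 104.7 ± 8.06 CPM in het stem cells, and 108.5 ± 14.5 CPM in hom and 123 ± 9.65 CPM in het TA cells (SD, n = 4 each). The hom and het libraries overlapped in both fractions. The log2 fold changes were -0.18 in stem cells (standard error 0.13) and -0.17 in TA cells (standard error 0.13, edgeR adjusted p = 0.951), against 0.30 in the Paneth fraction (standard error 0.24, adjusted p = 1.00).

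Ndufab1 (chr7:122085403-122101886, - strand), the acyl carrier protein itself and also a subunit of complex I, varied more between animals than between genotypes. Hom stem libraries had 92.0, 107, 173 and 176 CPM, and het stem libraries had 89.3, 137, 150 and 182 CPM. The animal whose label began with BN was the lowest in 6 of 6 groups, and the one whose label began with BP was the highest in 6 of 6, from 66.7 to 138 CPM in hom Paneth and from 91.4 to 221 CPM in het TA libraries. The labels do not say what these letters mark. The processed pseudogene Ndufab1-ps, to which reads of Ndufab1 can align, had 34.2 to 157 CPM and followed the same order, with the BN animal lowest in 6 of 6 groups and the BP animal highest in 5 of 6. The level of Ndufab1 is therefore uncertain by reads shared with that copy.

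The lipoate enzymes differed in the sign of their stem values. Lias (chr5:65391497-65410693, + strand), the iron-sulfur enzyme that inserts sulfur into the octanoyl chain, had 46.2, 33.6, 32.2 and 36.4 CPM in hom stem libraries, against 45.8, 50.6, 52.0 and 43.4 CPM in het stem libraries. Of the hom libraries, 3 of 4 lay below the het range and 1 was inside it. The log2 fold change was -0.38 in stem cells (standard error 0.16), -0.08 in TA cells (standard error 0.13, edgeR adjusted p = 0.99) and -0.07 in the Paneth fraction (standard error 0.21, adjusted p = 1.00).

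Lipt2 (chr7:100159277-100161365, + strand), which transfers the octanoyl chain from acyl carrier protein, was the 1 member past the filter with a log2 fold change above 0 in stem cells. The hom stem libraries had 95.9, 89.8, 90.1 and 87.6 CPM, against 67.0, 75.8, 23.3 and 75.8 CPM in het stem libraries. Every hom library was above every het library, and 1 het library was far below its group. This gave a log2 fold change of 0.58 with a standard error of 0.31, and 0.31 without that library. In TA cells Lipt2 averaged 58.9 ± 13.6 CPM in hom and 50.8 ± 6.39 CPM in het libraries (SD, n = 4 each), with overlapping ranges (log2 fold change 0.22, edgeR adjusted p = 0.966). Lipt1 (chr1:37871738-37876228, + strand), which moves lipoyl groups onto the dehydrogenase complexes, averaged 12.0 ± 3.18 CPM in hom and 13.7 ± 1.92 CPM in het stem cells. Its log2 fold change was -0.21 in stem cells (standard error 0.24) and 0.09 in TA cells (standard error 0.30, edgeR adjusted p = 0.996). It shares 262 of 2051 exonic bases with Mitd1 on the opposite strand, and strand was not used in counting.

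**Figure D3:**
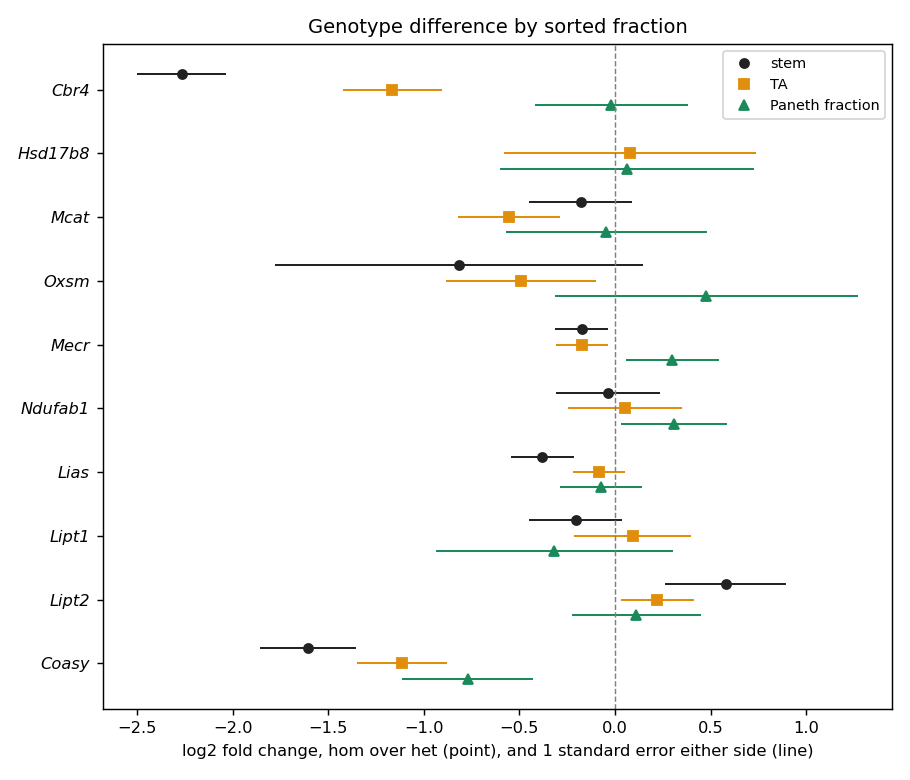
Log2 fold change of hom over het (horizontal axis) for each gene in stem cells (black circles), TA cells (orange squares) and the Paneth fraction (green triangles), with lines of 1 standard error either side. Cbr4 is at -2.27, -1.17 and -0.02 and Coasy at -1.61, -1.12 and -0.77, and the widest lines are those of Oxsm and Hsd17b8, the genes with the fewest counts. Hsd17b8 has no stem value because it did not pass the filter there.

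Set against all genes, the stem comparison had 2 of 16056 genes past an adjusted p of 0.05 (0.0125%) with edgeR, 1 with a replicate block and 277 with DESeq2, and 1081 genes had an unadjusted p below 0.05 with edgeR. Of the 9 members that passed the filter, 2 had no overlap with hom lower, Cbr4 and Coasy, and so did 2.93% of all genes tested. One, Lipt2, had no overlap with hom higher, as did 1.92% of all genes. Of the 9 log2 fold changes 8 were below 0, with a median of -0.21, while over all genes 49.5% were below 0. These stem counts include Cbr4, which was chosen on this same comparison, so they describe the list and do not test it. In TA cells edgeR called 0 of 10 members and 0 of 15925 genes (0.0%), with 2 members at an unadjusted p below 0.05, Cbr4 and Coasy, and 942 such genes in all. DESeq2 called both of these members and 121 genes. The groups did not overlap, with hom lower, for the same 2 members and for 2.19% of all genes, and the median log2 fold change of the members was -0.13. In the Paneth fraction edgeR called 0 members and 0 of 16108 genes (0.0%), with 1 member (Coasy) and 368 genes at an unadjusted p below 0.05. DESeq2 called 0 members and 27 genes there. The members' median was 0.02, with 5 values on each side of 0.

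Between fractions of het animals, Mecr, Lipt2 and Ndufab1 were lower in the Paneth fraction. Mecr had 47.2, 26.9, 39.8 and 50.3 CPM in het Paneth libraries, against 106, 92.9, 109.7 and 110.0 CPM in het stem libraries and 115, 117.5, 123 and 137 CPM in het TA libraries. The Paneth libraries all lay below the lowest stem and the lowest TA library. Its log2 fold change was -1.56 against TA (standard error 0.22, edgeR adjusted p = 0.000789) and -1.32 against stem cells (standard error 0.22, adjusted p = 0.00176). Both calls held under every setting tried, with an adjusted p of at most 0.0132.

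Lipt2 had 29.8, 18.3, 31.9 and 24.6 CPM in het Paneth libraries, against 55.3, 45.0, 57.2 and 45.6 CPM in het TA libraries. The fractions did not overlap, and the log2 fold change was -0.93 (standard error 0.22, edgeR adjusted p = 0.0106, and 0.0522 without replicate 4). Against het stem cells it was -1.18 (standard error 0.36, adjusted p = 0.031). That call was lost when animals were paired (adjusted p = 0.091) and when replicate 1, 2 or 4 was left out (adjusted p = 0.102, 0.155 and 0.137), and without replicate 3, whose stem library was the one at 23.3 CPM, the log2 fold change was -1.56 (adjusted p = 0.0048). Ndufab1 averaged 86.4 ± 27.6 CPM in het Paneth and 177 ± 58.7 CPM in het TA libraries (SD, n = 4 each). Its log2 fold change was -1.02 (standard error 0.31, edgeR adjusted p = 0.0324), and the call was lost without replicate 2, 3 or 4 (adjusted p = 0.104, 0.117 and 0.0633). Against het stem cells it was -0.66 (adjusted p = 0.0974, and 0.0369 with animals paired).

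Lipt1 was low in 3 of 4 het Paneth libraries, at 3.35, 2.85 and 4.30 CPM, with the remaining one at 12.7 CPM, against 11.8, 14.1, 16.2 and 12.8 CPM in het stem libraries. That single Paneth library lay within the stem range. The log2 fold change was -1.21 (standard error 0.47, edgeR adjusted p = 0.0763, and 0.0356 with animals paired), and -1.86 without replicate 3, which holds that library (adjusted p = 0.00805). Cbr4 averaged 21.7 ± 9.10 CPM in het Paneth and 28.0 ± 4.68 CPM in het TA libraries (log2 fold change -0.34, 95% interval -1.03 to 0.34, edgeR adjusted p = 0.428). Coasy was at -0.32 (adjusted p = 0.439) and Lias at -0.28 (adjusted p = 0.295) in the same comparison, and with an animal left out they ran from -0.728 to -0.000455 and from -0.471 to -0.107, both lowest without replicate 3. The hom Paneth libraries, not tested between fractions, had 40.2 to 63.3 CPM of Mecr against 81.2 to 105 CPM in hom stem and 90.8 to 126 CPM in hom TA libraries.

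In all, 3 of 10 members were called lower and 0 higher in the het Paneth fraction against TA cells, where 29.2% of all genes tested were called and 11.8% were called lower. Against stem cells 2 were called lower and 0 higher, where 28.3% of all genes were called and 11.0% were called lower. These counts did not pair the fractions by animal. With animals paired, edgeR called 3 members and 4714 genes against TA, and 3 members and 4191 genes against stem cells. In that stem comparison Lipt2 was lost, and Lipt1 and Ndufab1 passed. The members' median log2 fold change was -0.45 against TA and -0.58 against stem cells, with 0.08 and 0.05 over all genes. Between het stem and het TA cells edgeR called 0 members, with 0 at an unadjusted p below 0.05, where edgeR called 6.26% of all genes (1013, and 1848 with animals paired). For Mecr that stem over TA difference was -0.23 (95% interval -0.49 to 0.03, edgeR adjusted p = 0.305). DESeq2 also called 0 members there, with Mecr at an unadjusted p of 0.0339, and with animals paired edgeR gave unadjusted p of 0.0328 for Mecr and 0.0208 for Ndufab1 (adjusted p = 0.142 and 0.107). In the het Paneth fraction all 10 enteroendocrine and all 10 tuft markers had log2 fold changes above 0 against TA and stem cells. All 6 proliferation markers were called lower there by edgeR, with medians of -1.48 against TA and -1.62 against stem cells. Of the goblet markers, 8 of 8 were called lower in het stem than in het TA cells (median -6.15). The part of these marker differences in the member values was not tested.

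**Figure D4:**
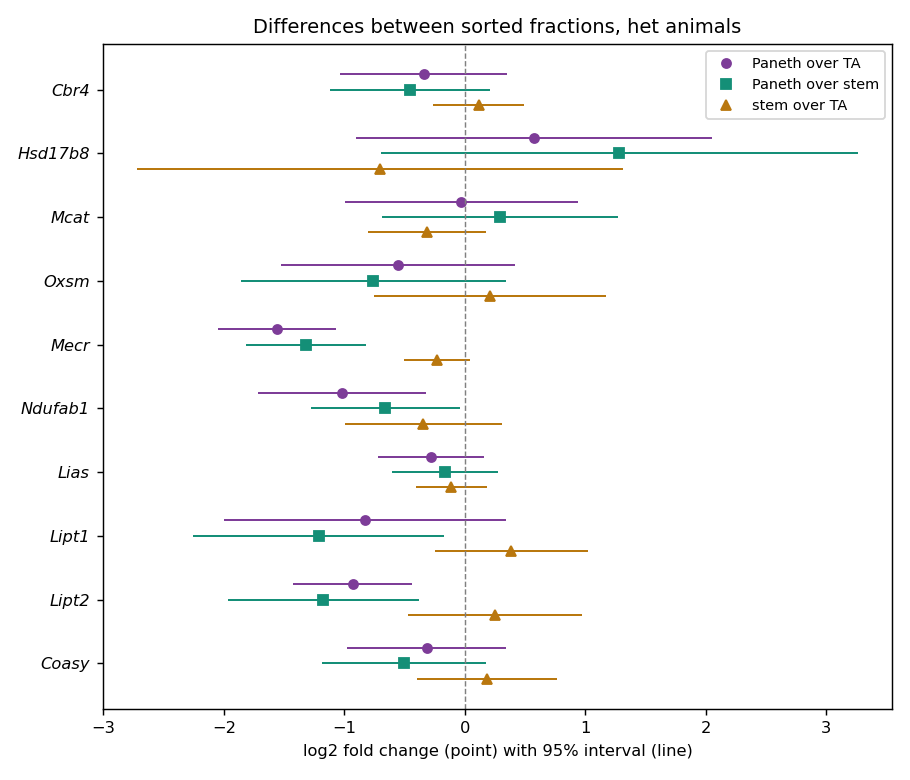
Log2 fold changes between fractions of het animals (horizontal axis) for each gene, Paneth over TA (purple circles), Paneth over stem (green squares) and stem over TA (brown triangles), with 95% intervals. Mecr is at -1.56 and -1.32 in the Paneth comparisons, and the stem over TA intervals all include 0.

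Per kilobase of exon the members spanned a wide range of levels. In het stem cells Lipt2 had 36.4 ± 15.1, Mecr 34.4 ± 2.65 and Ndufab1 20.3 ± 5.61 CPM per kilobase (SD, n = 4). Lias and Coasy followed at 10.5 ± 0.88 and 10.4 ± 3.05, Lipt1 at 6.70 ± 0.94 and Cbr4 at 4.84 ± 0.51 CPM per kilobase. Mcat had 2.69 ± 0.33, Oxsm 1.03 ± 0.61 and Hsd17b8 0.138 ± 0.165 CPM per kilobase. Lipt2 and Mecr, and Lias and Coasy, differed by less than their spread. In hom stem cells Cbr4 had 1.01 ± 0.26 and Coasy 3.43 ± 0.54 CPM per kilobase, against 54.6 ± 2.13 for Lipt2.

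Around these enzymes, 8 lists of related genes held 0 genes called by edgeR between genotypes in any fraction. Each list had 5 to 17 genes tested per fraction. Summed over the lists, 13 genes in stem cells, 3 in TA cells and 4 in the Paneth fraction had an unadjusted p below 0.05. DESeq2 called 4, 1 and 0 list genes, and 277, 121 and 27 among all genes. Over all genes, edgeR gave such a p for 1081 of 16056 in stem cells, 942 of 15925 in TA cells and 368 of 16108 in the Paneth fraction. The lists were chosen with earlier results of these data known, so their counts describe them and do not test them. The LYR list held 11 LYR-motif proteins, which bind acyl carrier protein, and the assembly factors Bcs1l and Sdhaf4, which are not LYR proteins. In stem cells 12 of its 13 log2 fold changes were below 0 (median -0.48), where 49.5% of all genes tested were below 0. Of the 13, 5 had an unadjusted p below 0.05 with edgeR, and DESeq2 called 2. Lyrm9 averaged 7.85 ± 0.42 CPM in hom and 14.5 ± 0.74 CPM in het stem cells, and Lyrm2 averaged 11.4 ± 3.00 CPM in hom and 22.7 ± 1.49 CPM in het stem cells (SD, n = 4 each; edgeR adjusted p = 0.158 and 0.198). In TA cells 8 of 13 were below 0 (median -0.13), and in the Paneth fraction 5 of 13 (median 0.18). Ndufab1 was at -0.04 in stem cells, and with a library left out it ran from -0.203 to 0.111.

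Markers of enterocytes and enteroendocrine cells also had values mostly below 0 in the stem comparison, and those of goblet cells did not. Of 10 enterocyte markers, 8 had a log2 fold change below 0, with a median of -2.29 and 5 at an unadjusted p below 0.05 (edgeR called 0 and DESeq2 1), and all 6 enteroendocrine markers tested were below 0 (median -1.80, with 0 at an unadjusted p below 0.05). Of 7 goblet markers tested, 4 were above and 3 below 0 (median 0.41). For Paneth markers 6 of 10 were below 0 (median -0.04), and for tuft markers 3 of 5 (median -0.18). The summed level of the enterocyte markers was 1250 to 1480 CPM in hom stem and 1310 to 2210 CPM in het stem libraries, and 0 of the 10 were at 0 in all libraries of either group. The part of these cells in the stem values of the 10 genes and of the lists was not tested.

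Iron-sulfur cluster assembly genes, which serve Lias, had 12 of 17 log2 fold changes below 0 in stem cells (median -0.22). Of these genes 3 had an unadjusted p below 0.05 with edgeR and 1 was called by DESeq2. Over all genes tested in stem cells, 49.5% were below 0 and 1081 of 16056 had such a p with edgeR, while DESeq2 called 277. Bola3, needed for clusters of Lias in human cells, averaged 36.6 ± 7.99 CPM in hom and 71.9 ± 12.4 CPM in het stem cells (log2 fold change -0.98, edgeR adjusted p = 0.198). In TA cells 15 of 17 were below 0 with a median of -0.17, and 0 had an unadjusted p below 0.05 with edgeR or were called by DESeq2. The subunits of the lipoate-dependent complexes had 10 of 13 values above 0 in stem cells (median 0.11), with 0 at an unadjusted p below 0.05 and 0 called by DESeq2. Bckdhb, of the branched-chain dehydrogenase, averaged 37.2 ± 0.53 CPM in hom and 27.1 ± 7.21 CPM in het stem cells (edgeR adjusted p = 0.747).

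Among regulators of those complexes, Bckdk, the kinase of the branched-chain dehydrogenase, averaged 58.3 ± 4.46 CPM in hom and 92.0 ± 13.5 CPM in het stem cells (edgeR adjusted p = 0.211). It had 64.9 ± 5.29 CPM in hom and 97.8 ± 27.0 CPM in het TA cells (adjusted p = 0.695). In coenzyme A synthesis, Ppcdc, the decarboxylase that acts just before Coasy, averaged 12.4 ± 0.87 CPM in hom and 22.2 ± 9.89 CPM in het stem cells (edgeR adjusted p = 0.643). Of the 10 genes of that list, 5 were below and 5 above 0 in stem cells, with a median of 0.03. The 17 related short-chain dehydrogenases tested had 6 values below 0 and 11 above (median 0.09), and the 14 cytosolic fatty acid synthesis genes had 8 below 0 (median -0.09). Rpp14, whose transcript in human also encodes the dehydratase of mitochondrial fatty acid synthesis, averaged 72.3 ± 8.85 CPM in hom and 90.7 ± 11.2 CPM in het stem cells (edgeR adjusted p = 0.741).

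**Figure D5:**
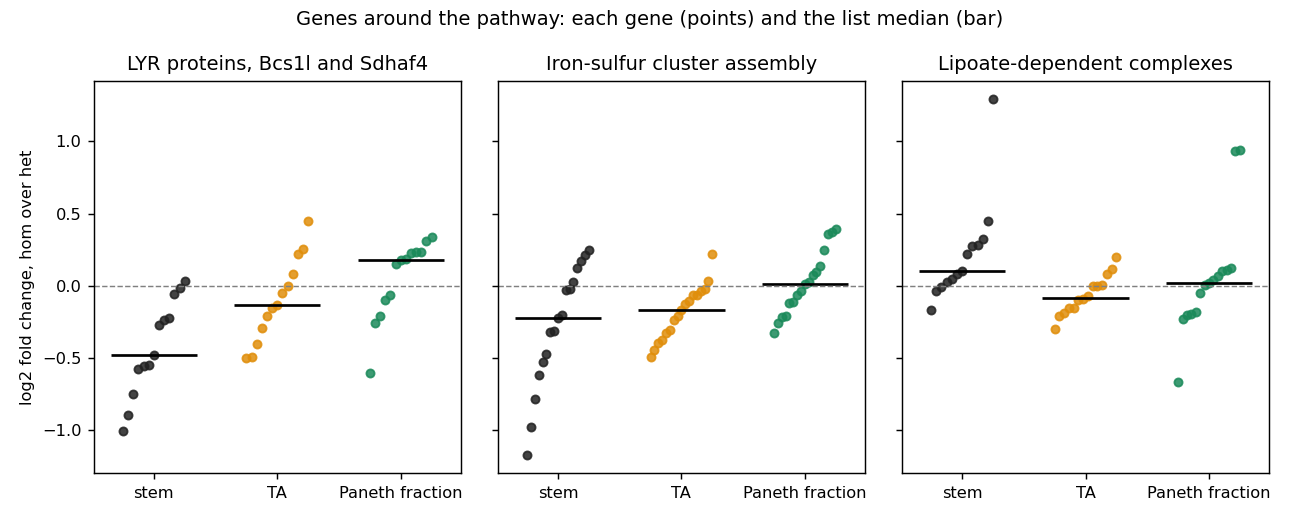
Log2 fold change of hom over het (vertical axis) for each gene of 3 lists (points) in stem cells, TA cells and the Paneth fraction, with the list median as a bar. The LYR-motif proteins with Bcs1l and Sdhaf4 have a median of -0.48 in stem cells, and the lipoate-dependent complexes have medians of 0.11, -0.08 and 0.02.

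Between fractions the same lists held calls. Against het TA cells, 6 of 17 iron-sulfur assembly genes were called lower and 0 higher in the het Paneth fraction by edgeR, with all 17 log2 fold changes below 0 and a median of -0.51, where 11.8% of all genes were called lower. Hspa9, the mitochondrial chaperone of cluster transfer, averaged 218 ± 42.6 CPM in het Paneth and 525 ± 62.8 CPM in het TA libraries (edgeR adjusted p = 0.00182). Of the lipoate-dependent complexes 6 of 15 were called lower and 2 higher, where 29.2% of all genes were called and 11.8% were called lower. Pdhx, which docks Dld in pyruvate dehydrogenase, averaged 26.6 ± 2.07 CPM in het Paneth and 87.6 ± 12.6 CPM in het TA libraries (adjusted p = 0.000162), and Ogdhl, a relative of oxoglutarate dehydrogenase, averaged 9.71 ± 2.52 CPM in het Paneth and 0.167 ± 0.171 CPM in het TA libraries (adjusted p = 0.00104). In the cytosolic list Acly, which makes acetyl-CoA from citrate, averaged 138 ± 21.8 CPM in het Paneth and 64.0 ± 6.15 CPM in het TA libraries (adjusted p = 0.00123). Between het stem and het TA cells, Ogdh was called lower in stem cells (65.2 ± 2.72 CPM in het stem, 98.3 ± 7.24 CPM in het TA, adjusted p = 0.0152), as was Fasn, the cytosolic synthase (18.8 ± 1.82 CPM in het stem, 31.6 ± 1.98 CPM in het TA, adjusted p = 0.0129).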

How the data were processed

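The deposited table holds raw counts of read pairs per gene from poly(A)-primed, full-length cDNA libraries. The authors counted with featureCounts 2.0.1 on the mm10 build, with Ensembl release 98 genes, a minimum mapping quality of 1 and no use of strand, per the file headers and the submitters' processing notes, which also name bcl2fastq 2.20.0. The 92 spike-in rows (at most 6 counts in a library) were left out. Hom was compared with het within each fraction, and fractions within het animals, with edgeR 4.0.16 (TMM, filterByExpr, quasi-likelihood F test, Benjamini-Hochberg over all genes tested). Levels are CPM over all 24 libraries. DESeq2 1.42.0 and other filters, scalings, pairing and left-out libraries were alternatives. The edgeR calculation was run on simulated counts of independent libraries for the stem and TA genotype comparisons only, and its outcome is not reported here. Of the gene identifiers, 55154 matched a symbol.

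The 10 genes and all lists were chosen with earlier results of these data known. The text names all 10, up to 4 called genes per list and comparison by smallest p (or 2 as values where none was called), of which a part is printed, the 5 genes most like Cbr4 and its 4 tested neighbours; Hspa9, Pdhx, Ogdhl, Acly, Ogdh and Fasn were taken from those. Replicates are different animals, numbered in accession order. The fractions of 1 animal pair by its label: same-animal deviations in het stem and TA libraries correlated at 0.26 to 0.661, in Paneth and TA libraries at 0.0169 to 0.314 and in Paneth and stem libraries at -0.076 to 0.318. Htd2 was not matched. Counting error and the limit of 3 counts cover counting only, since no molecular identifiers were used.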

Additional observations from a re-analysis of the deposited data

Results flagged for a closer look

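In 4 of the 60 gene and group combinations, 1 library stood apart from the other 3 of its group by Dixon's criterion, and chance alone flags about 1 in 20. Oxsm had 4.29 CPM in hom TA replicate 3, against 1.90 to 2.13 CPM in the other hom TA libraries. In the Paneth fraction of the same animal Oxsm had 0.166 CPM from 4 counts, against 4.13 to 4.75 CPM in the other hom Paneth libraries. Lipt1 had 12.7 CPM in het Paneth replicate 3, against 2.85 to 4.30 CPM in the other het Paneth libraries. Lipt2 had 23.3 CPM from 762 counts in het stem replicate 3, against 67.0 to 75.8 CPM in the other het stem libraries.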

How the results depend on the processing

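Genotype calls depended on the tool more than on any other setting tried. In stem cells edgeR called 2 genes, DESeq2 277, edgeR with a mean of at least 5 CPM 18 and the replicate block 1, with 0 to 3 when a library was left out. In TA cells the counts were 0 with edgeR, 121 with DESeq2 (2 members) and 4 at 5 CPM, and 0 with any library left out. In the Paneth fraction they were 0, 27 with DESeq2, 8 without a filter and 1 at 5 CPM, and 0 with any library left out. Between het fractions, stem against TA gave 1013 genes, 2231 with DESeq2, 1848 with the replicate block and 249 to 801 with an animal left out. Paneth against TA gave 4721, 7167 with DESeq2 and 2810 to 4259 with an animal left out (1 to 3 members), and Paneth against stem 4600, 6983 with DESeq2 and 2870 to 4137 (1 to 3 members). The cause of these differences was not tested.

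Replicate numbers follow accession order and were not taken to pair hom with het animals. Deviations of libraries with the same number correlated at 0.149 to 0.546 in stem cells and 0.163 to 0.533 in TA cells. In the Paneth fraction the range was -0.00353 to 0.488. Each hom TA library correlated best with the het TA library of its own number. In stem cells hom replicate 3 did not, and in the Paneth fraction hom replicate 2 did not. Log2 values near 0 changed sign. Cbr4 in the Paneth fraction was 0.0108 at 5 CPM, and -0.231 to 0.233 with a library left out. Mcat was 0.0249 between genotypes there with the replicate block (-0.355 to 0.203 with a library left out), and 0.00105 with DESeq2 size factors, 0.0757 at 5 CPM and -0.238 to 0.411 with an animal left out in Paneth against TA. With a library left out, the TA genotype values ran from -0.171 to 0.211 for Ndufab1, -0.0665 to 0.274 for Lipt1 and -0.199 to 0.363 for Hsd17b8, and the Paneth ones from -0.0657 to 0.326 for Lipt2, -0.19 to 0.239 for Hsd17b8, -0.182 to 0.0407 for Lias and -0.654 to 0.404 for Lipt1. Oxsm in stem against TA ran from -0.448 to 0.512. CPM by library total moved 15 of 60 group means by more than their SD.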
